A study of Mus musculus with 16 samples.

Results

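The genes of MHC class I presentation described here were Nlrc5, B2m, H2-K1, H2-D1, Tap1, Tap2, Tapbp, Psmb8, Psmb9 and Psmb10, taken as every probe to which the array's annotation gives 1 of these symbols. These 10 genes had 15 of the 25697 probes on the array, whose symbols name 16593 genes. Of the 15 probes, 14 were above background on all 16 arrays and were tested. The other, the third of 3 B2m probes, was above background on no array, at an intensity of 136 to 193, and is left out of every count.

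MHC class I molecules display fragments of the proteins made inside a cell to CD8+ T cells. Proteasomes cut the proteins, the transporter made of TAP1 and TAP2 carries the fragments into the endoplasmic reticulum, and tapasin, the product of Tapbp, holds empty class I molecules at the transporter while they are loaded. The finished molecule pairs a polymorphic heavy chain, such as the products of H2-K1 and H2-D1, with the light chain beta-2 microglobulin. Psmb8, Psmb9 and Psmb10 encode the catalytic subunits that turn the ordinary proteasome into the immunoproteasome, and NLRC5 is a transactivator of class I promoters. Interferons raise most of these genes, and microglia, the resident macrophages of the brain, are among the brain cells that carry class I molecules.

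Brains of mice on a mixed BL6 and 129/Sv background were digested, myelin was removed on antibody-coated beads, and cells bearing CD11b, an integrin of myeloid cells, were collected and labelled microglia. Their RNA was read on 16 Illumina arrays in 6 groups, in a study of how the amount of SIRT1, an NAD-dependent deacetylase, bears on microglia at different ages and in dementia models. Mice with floxed alleles of Sirt1 (SIRT1F/F) and mice that add the Cre recombinase of the lysozyme locus (LysM-Cre/SIRT1F/F) were each labelled young or old, with 3 arrays a group. TAU and TAU/LysM had 2 arrays each. LysM-Cre is active in myeloid cells at large, neutrophils and monocytes included. The name LysM-Cre alone stands for the second genotype from here on. The labels give no age for the TAU and TAU/LysM samples, do not name the tau allele, and do not repeat the floxed genotype for them, so TAU samples were set against both ages. Nothing in the labels says that replicates were separate mice, and the p-values therefore reflect only sample-to-sample spread, possibly of technical origin.

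Sirt1 read 9.48 to 10.21 across the arrays, and its differences between genotypes in young, old and TAU samples were not called (0.03, 0.07 and 0.05, limma adjusted p of 0.928 to 0.954). Where the Sirt1 probe lies relative to the floxed part is not known here, so its level does not check the deletion. Arrays of a group correlated at 0.984 to 0.994. Microglial markers were bright on every array, with Tmem119 at 13.66 to 14.65 and Cx3cr1 at 14.55 to 15.24. The TAU arrays stood apart in other cells' transcripts: the 10 tested oligodendrocyte markers averaged 10.75 and 11.06 there, against 8.25 to 9.05 elsewhere. Of the 14 T and NK cell markers listed, 7 were above background on at least 2 arrays and were tested, whereas Cd3e, Cd8a, Gzma and Gzmb were above it on none. On 5 arrays the female transcript Xist or the Y-linked Eif2s3y was near background and on 11 both were present, and the labels say nothing of sex or pooling.

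The promoters of the class I heavy chains and of B2m are shown because class I genes are classically read through a shared module, in which an X2 box (a TGACG, on which CREB and ATF proteins sit) and a Y box (CCAAT, bound by NF-Y) lie in tandem. RefSeq (GRCm38.p6) gives a window from 250 bases before to 50 bases after the start site for 8 of the 10 genes. Capitals mark matches on either strand to TGACG, to CCAAT and to the core of the interferon-stimulated response element (paired GAAA runs), where ATTGG and CGTCA are CCAAT and TGACG on the other strand. H2-K1 lies at chr17:34000298-34000597 on the minus strand, H2-D1 at chr17:35262844-35263143 on the plus strand, B2m at chr2:122147437-122147736 on the plus strand and Tap1 at chr17:34187306-34187605 on the plus strand. Each is printed 5′ to 3′ along its gene, H2-K1 as the first of its 2 listed windows.
H2-K1: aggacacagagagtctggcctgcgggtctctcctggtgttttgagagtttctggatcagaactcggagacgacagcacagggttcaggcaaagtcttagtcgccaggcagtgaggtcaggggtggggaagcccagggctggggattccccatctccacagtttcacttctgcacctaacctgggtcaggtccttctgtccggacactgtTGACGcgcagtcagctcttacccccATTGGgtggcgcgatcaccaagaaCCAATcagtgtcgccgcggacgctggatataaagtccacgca
H2-D1: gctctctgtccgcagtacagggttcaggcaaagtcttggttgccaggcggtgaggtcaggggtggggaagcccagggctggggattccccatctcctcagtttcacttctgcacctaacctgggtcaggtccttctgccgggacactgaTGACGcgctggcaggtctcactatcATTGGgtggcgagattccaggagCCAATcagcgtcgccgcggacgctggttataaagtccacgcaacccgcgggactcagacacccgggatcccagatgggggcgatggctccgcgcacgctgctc
B2m: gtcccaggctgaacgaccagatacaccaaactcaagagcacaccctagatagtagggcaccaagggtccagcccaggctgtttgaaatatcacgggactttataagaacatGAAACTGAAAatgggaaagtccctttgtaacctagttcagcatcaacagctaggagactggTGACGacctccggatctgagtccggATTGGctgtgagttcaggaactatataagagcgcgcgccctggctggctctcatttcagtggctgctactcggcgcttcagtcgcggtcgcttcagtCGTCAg
Tap1: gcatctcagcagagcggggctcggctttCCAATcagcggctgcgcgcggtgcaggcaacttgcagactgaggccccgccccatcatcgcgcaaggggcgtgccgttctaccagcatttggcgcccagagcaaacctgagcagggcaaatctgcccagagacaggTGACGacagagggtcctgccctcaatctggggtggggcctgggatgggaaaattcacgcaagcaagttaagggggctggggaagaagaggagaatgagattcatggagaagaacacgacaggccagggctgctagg

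In H2-K1, H2-D1 and B2m a TGACG stood 20 bases upstream of an ATTGG on the same strand, at -41, -101 and -78 from the start site. That arrangement, whose spacing was chosen after these windows were seen, occurred in 31 of 32851 RefSeq windows (0.0944%), which belong to 27 genes, among them the class I gene H2-M3. Singly the motifs are common: TGACG was in 5 of the 8 member windows and in 20.8% of all windows, and CCAAT in 6 of 8 and in 37.4%. B2m alone of the 8 held an exact match to the searched core of the interferon-stimulated response element, at -139, against 3.44% of all windows. The search allowed no mismatch in the paired runs. Diverged forms of the element, in the heavy-chain windows among others, would thus be missed, and their absence was not tested. Psmb8 alone held the gamma-activated site TTCNNNGAA, at -97, against 8.3%. No 2 of these matches overlapped. The windows of Tap1 and Psmb9, which are transcribed away from each other, share 275 bases, so that the TGACG and the CCAAT printed for Tap1 are also those of Psmb9. Psmb10 held none of the 4 motifs, and Tapbp only CCAAT.

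**Figure D1:**
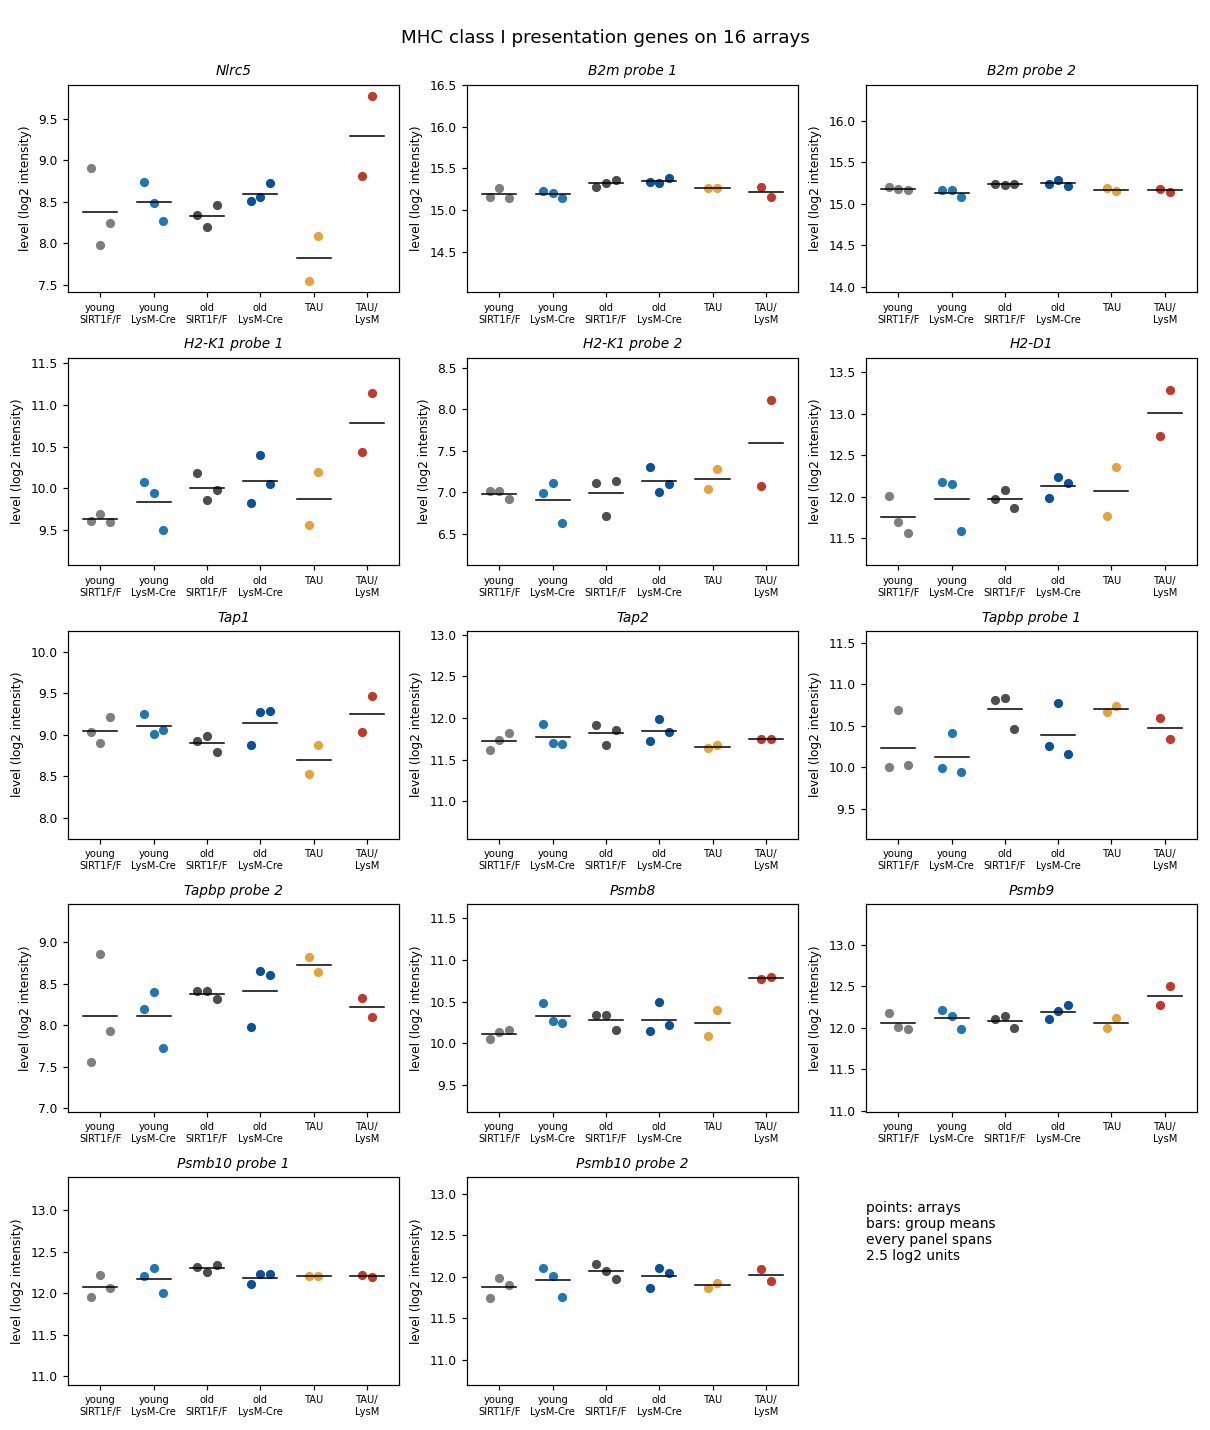
Level of each of the 14 tested probes (y axis, log2 normalized intensity, every panel spanning 2.5 log2 units) on the 16 arrays by group (x axis), with points for arrays and bars for group means. Both TAU/LysM arrays lie above the other 14 for H2-K1 probe 1, H2-D1 and Psmb8, and for Nlrc5 replicate 2 does, while B2m, Tap2 and Psmb10 span the least.

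Nlrc5, the transactivator, was the member that varied most across the arrays. Its level, in log2 of the normalized intensity, was 8.91, 7.98 and 8.24 on the young SIRT1F/F arrays and 8.74, 8.48 and 8.27 on those of young LysM-Cre. In the old groups it was 8.34, 8.19 and 8.46 in SIRT1F/F and 8.51, 8.56 and 8.72 in LysM-Cre. It was 7.55 and 8.09 on the TAU arrays and 8.81 and 9.77 on the TAU/LysM arrays. TAU/LysM replicate 2 was thus the highest of the 16 arrays and TAU replicate 1 the lowest, and the 2 TAU groups did not overlap. Group means ran from 7.82 ± 0.38 (SD, n = 2) in TAU through 8.33 ± 0.14, 8.38 ± 0.48 and 8.50 ± 0.24 (n = 3 each) in old SIRT1F/F, young SIRT1F/F and young LysM-Cre to 8.60 ± 0.11 in old LysM-Cre and 9.29 ± 0.68 (n = 2) in TAU/LysM. The 4 groups in the middle of this order overlapped their neighbours, whereas TAU lay wholly below old SIRT1F/F and TAU/LysM wholly above old LysM-Cre.

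Nlrc5 rose in TAU/LysM against TAU, by 1.47 ± 0.31 (SE, log2, a 2.78-fold difference, limma with Benjamini-Hochberg adjusted p = 0.0316). It was the only member called in that comparison, in which 1.47% of all tested probes were called in either direction and 0.318% as higher. The call rests on few arrays: it was lost when any of 3 of the 4 arrays compared was left out. The difference was 0.99 without TAU/LysM replicate 2, 1.21 without TAU replicate 1 and 1.74 without TAU replicate 2 (adjusted p of 0.379, 0.388 and 0.0527). Over 28 alternatives the adjusted p ran from 0.0116 to 0.388 and the difference kept its sign, with a call under 19 of them. Among these alternatives, the fits without 1 young or old array all kept the call and left the difference at 1.47. In those fits only the estimated spread and the adjustment could change, so they do not test the arrays compared. The same genotype difference was 0.12 ± 0.25 in young and 0.27 ± 0.25 in old samples, not called. The difference between the TAU and the young genotype effects was 1.36 ± 0.40 (adjusted p = 0.252) and that between TAU and old was 1.21 ± 0.40 (adjusted p = 0.386), so that an effect particular to TAU was not called.

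TAU samples differed from TAU/LysM in transcripts of other cells too, and since these are mixed cells, fewer cells of a type and less RNA per cell cannot be told apart. Of 10 oligodendrocyte markers 7 fell in TAU/LysM against TAU (median -2.82), with Mbp, a myelin protein, at -3.94 ± 0.71 and Mog, a myelin surface protein, above background on both TAU arrays and on neither TAU/LysM array. Of 7 choroid plexus markers 6 fell (median -2.10), as did 2 of 7 astrocyte markers (median -0.51) and 1 of 4 neuronal markers (median -0.34). Of 10 microglial markers 0 were called (median -0.19), and the list averaged 13.40 to 13.42 in TAU and 13.16 to 13.19 in TAU/LysM. The part of these cells in the Nlrc5 difference was not tested. In 1 fit, added after the data were seen, each array's oligodendrocyte level was a covariate. The Nlrc5 difference there was 3.16 and not called (limma adjusted p = 0.249), and 0 probes of the array were called. In TAU that level stood 1.94 and 2.25 above its mean over the arrays, and elsewhere at -0.57 to 0.24. The covariate thus nearly repeats the TAU group, and the fit cannot tell the 2 apart. Monocyte markers had a median of 1.04 with 1 of 5 called higher (F10, coagulation factor X, by 1.04 ± 0.19), neutrophil markers a median of 0.69 with 0 of 12 called, and border-associated macrophage markers a median of 0.47 with 0 of 7 called. From TAU to TAU/LysM the monocyte list averaged 9.87 to 10.35 and 10.99 to 11.15, the neutrophil list 10.92 to 11.51 and 11.82 to 11.93, and the border-associated macrophage list 11.66 to 11.91 and 12.32 to 12.40. Their part in the difference was not tested. T and NK cell markers had a median of 0.33 with 0 of 7 called, and averaged 7.23 to 7.29 in TAU and 7.60 to 7.80 in TAU/LysM.

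The heavy chains H2-K1 and H2-D1 were highest in TAU/LysM. H2-D1 read 12.01, 11.70 and 11.57 on the young SIRT1F/F arrays, 12.18, 12.16 and 11.59 in young LysM-Cre, 11.97, 12.08 and 11.86 in old SIRT1F/F and 11.98, 12.24 and 12.17 in old LysM-Cre. On the TAU arrays it was 11.77 and 12.36, and on the TAU/LysM arrays 12.73 and 13.28. Both TAU/LysM arrays lay above the other 14. H2-D1 rose in TAU/LysM against young LysM-Cre by 1.03 ± 0.22 (2.04-fold, limma adjusted p = 0.0159). Against TAU it was higher by 0.94 ± 0.24 (adjusted p = 0.0794) and against old LysM-Cre by 0.87 ± 0.22 (adjusted p = 0.0592), neither called. The order of group means was young SIRT1F/F (11.76 ± 0.23, SD), old SIRT1F/F (11.97 ± 0.11), young LysM-Cre (11.98 ± 0.34), TAU (12.06 ± 0.41), old LysM-Cre (12.13 ± 0.13) and TAU/LysM (13.01 ± 0.39), and only the last step separated neighbours.

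The brighter H2-K1 probe read 9.61, 9.69 and 9.59 on the young SIRT1F/F arrays, 10.07, 9.94 and 9.50 in young LysM-Cre, 10.18, 9.86 and 9.98 in old SIRT1F/F and 9.82, 10.40 and 10.05 in old LysM-Cre. It was 9.55 and 10.19 on the TAU arrays and 10.43 and 11.14 on the TAU/LysM arrays. Both TAU/LysM arrays were above all others, replicate 1 by a narrow margin over old LysM-Cre replicate 2, and the young SIRT1F/F arrays were the tightest group (9.63 ± 0.05, SD). H2-K1 on this probe rose in TAU/LysM against young LysM-Cre by 0.95 ± 0.24 (1.93-fold, limma adjusted p = 0.0325), and was higher against TAU by 0.91 ± 0.26 (adjusted p = 0.125). The dim second H2-K1 probe disagreed in part: it was 8.11 on TAU/LysM replicate 2 but 7.08 on replicate 1, inside the 6.63 to 7.30 of the other arrays, and its difference of 0.68 ± 0.24 from young LysM-Cre was not called (adjusted p = 0.1). H2-K1 and H2-D1 belong to a family of near-identical genes whose RNA a probe may share, so the assignment to 1 gene is uncertain.

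The 2 heavy-chain calls against young LysM-Cre compare with 7.23% of all tested probes called in either direction and 3.44% called higher. Without TAU/LysM replicate 2 neither gene was called, with H2-K1 at 0.59 and H2-D1 at 0.76 (adjusted p of 0.278 and 0.157). H2-D1 was called under 25 of 28 alternatives (adjusted p from 0.00879 to 0.22) and H2-K1 under 21 (adjusted p from 0.02 to 0.278). Among these alternatives, the fits without 1 array of another group all kept both calls, with H2-D1 still at 1.03 and H2-K1 at 0.95. Those fits do not test the arrays compared. Without young LysM-Cre replicate 3, the lowest array for H2-K1, H2-K1 was 0.78 higher (adjusted p = 0.106). In that comparison the oligodendrocyte markers had a median of -0.20 with 0 of 10 called. Of 10 microglial markers 5 fell, Tmem119 by 0.84 and Cx3cr1 by 0.46 on the log2 scale, and the microglial list averaged 13.16 to 13.19 in TAU/LysM and 13.48 to 13.64 in young LysM-Cre. Of 7 border-associated macrophage markers 1 rose (Lyve1, a hyaluronan receptor, by 0.95 ± 0.23, median of the list 0.45), and the list averaged 12.32 to 12.40 in TAU/LysM and 11.72 to 12.13 in young LysM-Cre. The part of these cells was not tested.

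The light chain B2m spanned the least of all members. Its 2 bright probes spanned 15.14 to 15.38 and 15.08 to 15.29 over the 16 arrays. TAU/LysM against TAU differed by -0.04 (95% interval -0.25 to 0.16) on the first and by -0.01 (-0.20 to 0.18) on the second, and TAU/LysM against young LysM-Cre by 0.03 on both. Old LysM-Cre was higher than TAU/LysM, not called, with means of 15.35 against 15.22 and 15.25 against 15.16. On both probes every TAU/LysM array lay below every old LysM-Cre array, as on 15.9% of all tested probes. These probes read at 73.7% to 91.1% of the brightest signal on their array, where differences may be compressed. With age the first probe was higher by 0.14 ± 0.08 in SIRT1F/F and by 0.16 ± 0.08 in LysM-Cre (adjusted p of 0.456 and 0.308), and on both probes every old array lay above every young one in both genotypes (as on 7.39% of all tested probes in SIRT1F/F and 8.6% in LysM-Cre).

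Tap1, Tap2 and Tapbp, which supply and hold the peptide transporter, had no called difference. Tap1 read 8.53 and 8.87 on the TAU arrays and 9.03 and 9.47 on the TAU/LysM arrays, against 8.79 to 9.29 on the other 12. TAU/LysM thus lay above TAU, by 0.55 ± 0.18 (limma adjusted p = 0.188), and both groups overlapped the rest. Tap2 spanned only 11.61 to 11.99 over all arrays, and its TAU/LysM difference from TAU was 0.09 (95% interval -0.19 to 0.37). Tapbp lay below TAU in TAU/LysM, not called: on its brighter probe TAU read 10.67 and 10.74 and TAU/LysM 10.60 and 10.34, a difference of -0.24 ± 0.25, and on its dimmer probe 8.82 and 8.64 against 8.33 and 8.10, a difference of -0.51 ± 0.34 (adjusted p of 0.754 and 0.559). Tapbp was uneven in young SIRT1F/F, where replicate 2 read 10.69 and the other arrays at most 10.03 on the brighter probe. Without that array the dimmer probe was 0.98 higher in TAU than in young SIRT1F/F and called (adjusted p = 0.0225), against 0.61 ± 0.31 with it (adjusted p = 0.217).

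Of the immunoproteasome subunits, Psmb8 separated TAU/LysM from all other arrays without being called. Psmb8 read 10.77 and 10.80 on the TAU/LysM arrays, 10.08 and 10.40 on the TAU arrays and 10.05 to 10.49 on the other 12. The TAU/LysM pair lay close together and above the other 14 arrays. Its difference was 0.54 ± 0.14 against TAU, 0.46 ± 0.13 against young LysM-Cre and 0.50 ± 0.13 against old LysM-Cre (limma adjusted p of 0.0841, 0.0501 and 0.0665). Against young LysM-Cre it was called under 9 of 28 alternatives, with adjusted p from 0.0255 to 0.632. Psmb9 read 12.27 and 12.50 in TAU/LysM and at most 12.12 in TAU, a difference of 0.32 ± 0.12 (adjusted p = 0.264). Psmb10 was level: its brighter probe read 12.21 on both TAU arrays and 12.22 and 12.20 on the TAU/LysM arrays, with a 95% interval of -0.26 to 0.25 for the difference.

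**Figure D2:**
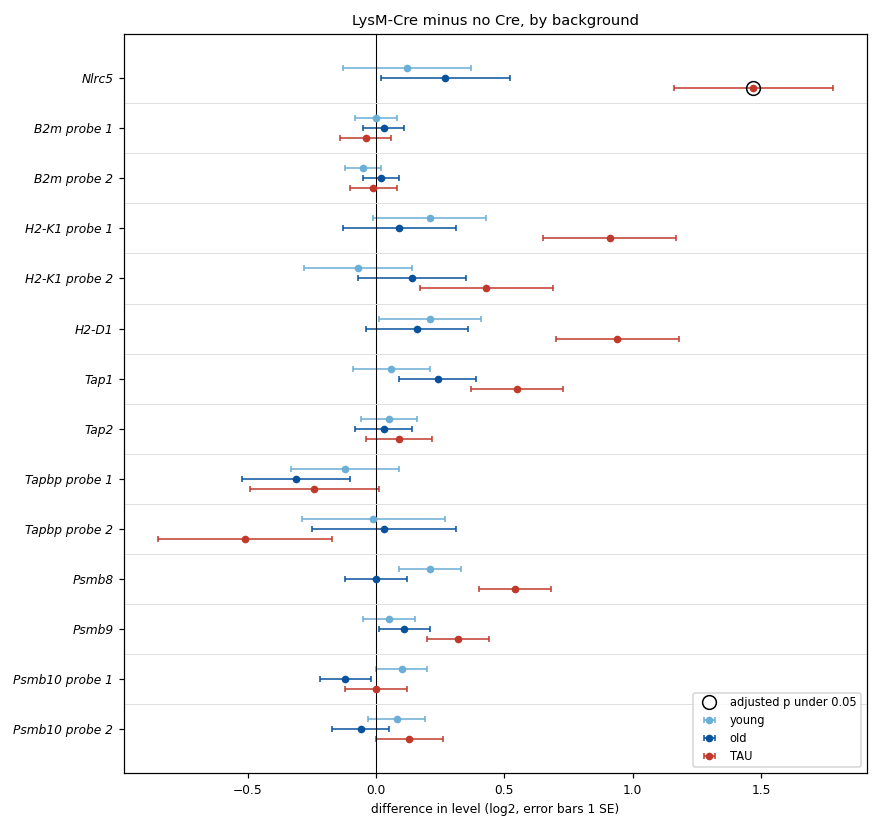
LysM-Cre minus no Cre for each of the 14 probes (x axis, log2 difference, error bars 1 SE from the limma fit), among young, old and TAU samples (colours), with a ring at adjusted p under 0.05. The only ring is Nlrc5 in TAU samples at 1.47, and the TAU values of H2-K1 probe 1, H2-D1, Tap1 and Psmb8 lie to the right of the young and old ones.

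Between genotypes in young mice no member was called, among 14 tested probes and with 0% of all tested probes called, and no member reached an unadjusted p under 0.05 (4.31% of all tested probes were higher and 3.62% lower at that level). The member differences ran from -0.12 to 0.21 with a median of 0.06 (0 for all tested probes). The widest were H2-K1, H2-D1 and Psmb8, each 0.21 higher in LysM-Cre, and only Psmb8 had every LysM-Cre array above every SIRT1F/F array, as 5.13% of all tested probes did (its 95% interval was -0.04 to 0.46). Same-numbered young arrays deviated together, and with the number as a block there were also 0 member calls. In old mice, where 0.0183% of all probes were called, the count was again 0 of 14 with none at an unadjusted p under 0.05 (3.6% of all probes higher and 2.99% lower). The differences there ran from -0.31 for the brighter Tapbp probe to 0.27 for Nlrc5, with a median of 0.03.

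In TAU samples the members' median genotype difference was 0.22, against 0.01 for all tested probes. Nlrc5 included, 6 of 14 member probes, from 6 genes, were higher at an unadjusted p under 0.05 (Nlrc5, H2-K1, H2-D1, Tap1, Psmb8 and Psmb9), where 6.94% of all tested probes were. On 8 probes every TAU/LysM array was above every TAU array, and on 2, both of Tapbp, every one was below, where 25.9% and 22.8% of all tested probes were. Averaged over young, old and TAU samples, the genotype difference was called for 0 of 14 member probes, against 1.22% of all tested probes, and 6 were higher at an unadjusted p under 0.05 (10.3% of all probes). Nlrc5 came nearest at 0.62 ± 0.16 (limma adjusted p = 0.0661, from 0.0255 to 0.224 over 27 alternatives). H2-D1 averaged 0.44 ± 0.12 (adjusted p = 0.0854) and Psmb8 0.25 ± 0.07 (adjusted p = 0.0901). In the TAU effect minus the young effect 0 of 14 members were called (0.305% of all probes) and 2 were higher at an unadjusted p under 0.05 (3.51% of all). In the TAU effect minus the old effect 0 were called (0.202%) and 4 were higher at that level (3.14% of all). The old effect minus the young effect had 0 member calls (0% of all probes), none at an unadjusted p under 0.05 (1.21% of all higher and 1.23% lower).

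No member was called with age. In SIRT1F/F the count was 0 of 14, where 1.26% of all tested probes were called, and 2 were higher at an unadjusted p under 0.05 (6.72% of all): the brighter Tapbp probe by 0.47 ± 0.21 and the brighter Psmb10 probe by 0.22 ± 0.10 (limma adjusted p of 0.318 and 0.308). The median member difference was 0.15, against -0.03 for all tested probes. On 5 member probes of 4 genes (both B2m probes, the brighter H2-K1 and Psmb10 probes, and Psmb8) every old array was above every young one, as on 7.39% of all tested probes. The 10 endothelial markers had a median of 0.90 in the same comparison with 1 called, and averaged 10.18 to 11.32 on young and 11.43 to 11.88 on old SIRT1F/F arrays. Their part was not tested. In LysM-Cre samples the count with age was 0 of 14 (1.69% of all probes called), with none at an unadjusted p under 0.05 (7.59% of all higher and 9.72% lower) and a median of 0.11 (-0.03 for all). Of 27 transcriptional regulators only Irf1 was called with age in SIRT1F/F, higher by 0.67 ± 0.13 (limma adjusted p = 0.0296). In LysM-Cre Irf1 was 0.56 ± 0.13 higher, not called (adjusted p = 0.0541). Its part in the member levels was not tested.

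**Figure D3:**
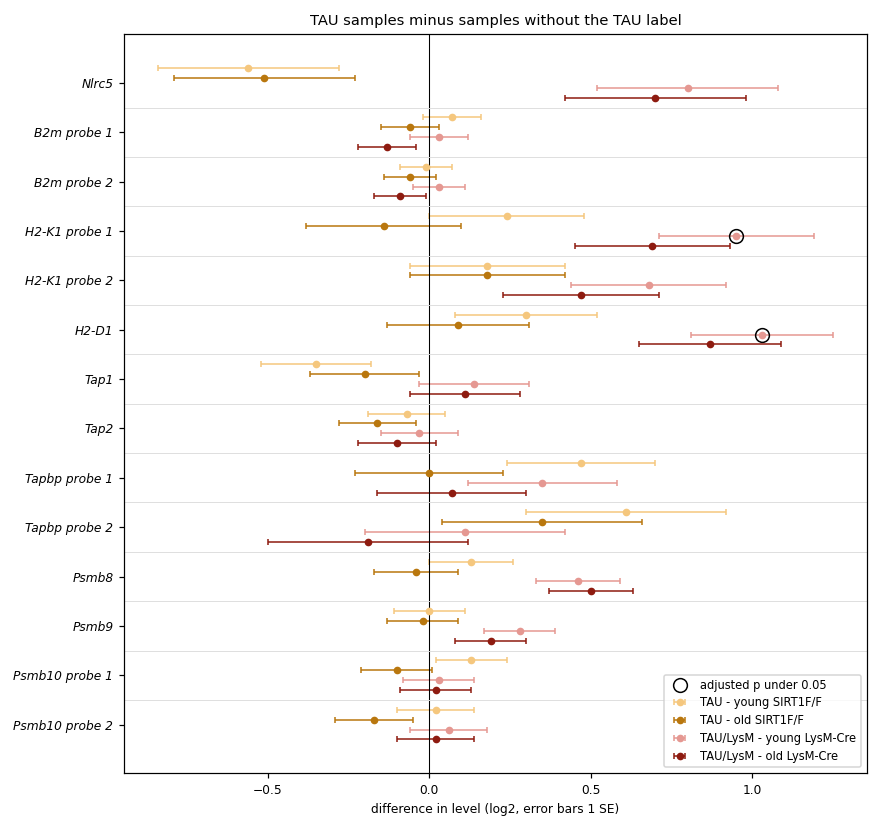
TAU minus SIRT1F/F and TAU/LysM minus LysM-Cre, each against young and old samples, for each of the 14 probes (x axis, log2 difference, error bars 1 SE from the limma fit), with rings at adjusted p under 0.05. Rings mark H2-K1 probe 1 (0.95) and H2-D1 (1.03) in TAU/LysM minus young LysM-Cre, and for Nlrc5 the TAU values lie left of 0 and the TAU/LysM values right of it.

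In TAU samples without Cre no class I member was called higher or lower. Against young SIRT1F/F the count was 0 of 14 member probes, where 11.9% of all tested probes were called, and none reached an unadjusted p under 0.05 (12.1% of all higher and 15.6% lower). The lowest was Nlrc5 at -0.56 ± 0.28 and the highest the dimmer Tapbp probe at 0.61 ± 0.31. Against old SIRT1F/F, where 3.96% of all probes were called, the count was again 0 with none at an unadjusted p under 0.05 (8.31% of all higher and 8.67% lower), and the median was -0.06 (-0.02 for all). On 6 probes of 4 genes (Nlrc5, both B2m probes, Tap2 and both Psmb10 probes) every TAU array was below every old SIRT1F/F array, as on 20.9% of all tested probes. Both comparisons use the same 2 TAU arrays, which carried the oligodendrocyte transcripts described above (9 of 10 markers higher against young SIRT1F/F, 7 of 10 against old). The part of those transcripts was not tested.

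TAU/LysM samples, set against LysM-Cre samples of either age, share no array with those TAU comparisons. Against young LysM-Cre 13 of 14 member probes were above 0 (46.8% of all tested probes were), with a median of 0.21 (-0.02 for all), and 6 probes of 5 genes were higher at an unadjusted p under 0.05 (10.3% of all). These were Nlrc5, both H2-K1 probes, H2-D1, Psmb8 and Psmb9. Against old LysM-Cre 10 of 14 were above 0 (49.5% of all), with a median of 0.09 (0 for all). There 0 were called (2.24% of all) and 4 were higher at an unadjusted p under 0.05 (8% of all). Those 4 were Nlrc5 at 0.70 ± 0.28, H2-K1 at 0.69 ± 0.24, H2-D1 at 0.87 ± 0.22 and Psmb8 at 0.50 ± 0.13, each with both TAU/LysM arrays above the 3 old LysM-Cre arrays, as 16% of all tested probes were. On 2 probes, both of B2m, every TAU/LysM array was below every old LysM-Cre array, as on 15.9% of all tested probes.

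The 2 TAU/LysM arrays were not alike. Replicate 2 held the highest level of the 16 arrays on 7 of the 14 tested member probes, against 8.7% of all tested probes, and replicate 1 on none. Its gap above the next highest array was 0.87 for Nlrc5, 0.71 for H2-K1 and 0.54 for H2-D1, ranked 16, 27 and 58 among the 16376 tested probes. The widest gap of all tested probes was that of H2-M2, another class I heavy chain in the MHC, which read 12.92 there and 6.66 to 8.74 on the other 15 arrays. Replicate 1 differed in another direction, with an erythrocyte list 1.74 above its mean over the arrays (-0.63 in replicate 2) and Eif2s3y near background.

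Other genes of the pathway were read from lists that were chosen with earlier results of these data known. Of 17 other class I heavy chains, 0 were called in TAU/LysM against TAU (median 0.13), with H2-Q5 at 0.72 ± 0.23 and H2-T23, the gene of Qa-1, at 0.66 ± 0.19 the lowest in p (limma adjusted p of 0.16 and 0.12). H2-Q5 rose on average over the 3 genotype comparisons, by 0.51 ± 0.12 (limma adjusted p = 0.0493). That call was lost when most single arrays were left out, among them each old array, TAU/LysM replicate 2 and TAU replicate 1. Against old LysM-Cre none of the 17 was called in TAU/LysM, where 2.24% of all tested probes were. H2-M2 was the lowest in p there, at 3.18 ± 0.83 (limma adjusted p = 0.0671). Against young LysM-Cre 3 of the 17 rose and 2 fell in TAU/LysM, where 7.23% of all tested probes were called and 3.44% as higher. H2-T10 rose by 1.51 ± 0.35, reading 8.52 and 8.89 in TAU/LysM and 6.86, 7.99 and 6.74 in young LysM-Cre. In old LysM-Cre it read 7.69, 8.56 and 8.36, which overlapped TAU/LysM. Old LysM-Cre was 1.01 ± 0.31 above young LysM-Cre for H2-T10, not called (limma adjusted p = 0.126). H2-Q8 rose by 1.16 ± 0.32. H2-M2 rose by 3.59 ± 0.83, a value carried by TAU/LysM replicate 2 (replicate 1 read 8.42). Cd1d1, a lipid-presenting molecule, fell by 0.71 and Hfe, a regulator of iron uptake, fell by 0.47 on the log2 scale. Without TAU/LysM replicate 2 none of the 17 was called in either direction, and the median went from 0.23 to 0.10.

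Of 23 type I interferon-stimulated genes, 3 rose in TAU/LysM against TAU, where 0.318% of all tested probes were called higher. All 23 were above 0, with a median of 0.66 (0.01 for all tested probes). Oas2, a sensor of double-stranded RNA, rose by 1.73 ± 0.35 and read 10.21 and 10.59 in TAU/LysM and 8.45 and 8.89 in TAU. Irf7, the transcription factor that amplifies interferon production, rose by 1.37 ± 0.28, and Mx1, an antiviral GTPase, by 1.04 ± 0.23 (limma adjusted p of 0.0258, 0.0294 and 0.0386). Among 27 transcriptional regulators 1 rose: Stat2, which carries the interferon signal to the nucleus, by 1.04 ± 0.22 (adjusted p = 0.0309), reading 9.13 and 9.31 in TAU/LysM and 8.01 and 8.35 in TAU. Without TAU/LysM replicate 2, or without TAU replicate 1, neither list held a call, while 23 and 22 of the 23 interferon-stimulated genes were still above 0 (medians of 0.54 and 0.56). Irf7 was the only call in the 2 lists without TAU replicate 2, and also without TAU/LysM replicate 1 (interferon-stimulated medians of 0.73 and 0.75). Against young LysM-Cre 11 of the 23 interferon-stimulated genes rose (median 0.80, with 3.44% of all tested probes called higher), with Ifi27l2a at 1.36 ± 0.24, Ifit2 at 1.26 ± 0.20, Ifit3 at 1.24 ± 0.20 and Isg15 at 1.01 ± 0.19. Without TAU/LysM replicate 2 the count was 1, Ifit3, and the median 0.62. With all arrays fitted, Ifngr1, the ligand-binding chain of the interferon-gamma receptor, fell by 0.54 on the log2 scale in TAU/LysM against young LysM-Cre. Against old LysM-Cre its difference was -0.49 ± 0.14, not called. The only interferon-stimulated genes called against old LysM-Cre were Trim30a, at 1.30 ± 0.17, and Ifit2, at 1.09 ± 0.20. In that comparison 1.48% of all tested probes were called higher.

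**Figure D4:**
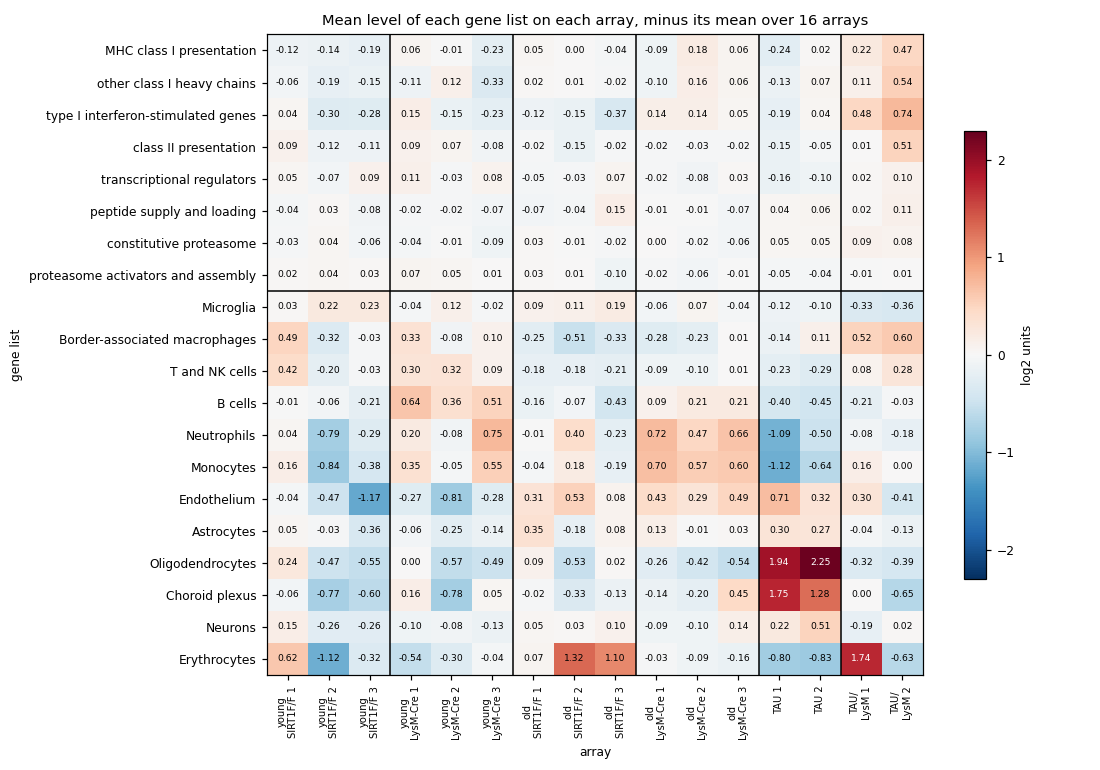
Mean level of each gene list on each array minus its mean over 16 arrays (colour and printed value, log2 units), with lists as rows and arrays as columns, pathway lists above the line and cell markers below it. The interferon-stimulated genes stand at 0.48 and 0.74 on the TAU/LysM arrays, the class I members at 0.22 and 0.47, and the oligodendrocyte markers at 1.94 and 2.25 on the TAU arrays.

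Of 12 constitutive subunits 0 were called in TAU/LysM against TAU (median -0.01). Psmb6, the constitutive counterpart of Psmb9, read 12.97 and 13.10 on the TAU/LysM arrays, 12.77 and 12.82 on the TAU arrays and 12.32 to 12.56 on the other 12. All 4 tau-labelled arrays thus lay above the other 12. Psmb6 rose in TAU/LysM by 0.54 ± 0.10 against young and by 0.63 ± 0.10 against old LysM-Cre (limma adjusted p of 0.00589 and 0.0047), and in TAU by 0.36 ± 0.10 against young SIRT1F/F (adjusted p = 0.0323). Psmb6 was not called against young LysM-Cre without TAU/LysM replicate 2. Psmb5, the counterpart of Psmb8, was 0.53 ± 0.20 higher in TAU/LysM than in TAU (adjusted p = 0.258). Of 16 genes of peptide trimming and loading and of 8 proteasome activators and assembly factors 0 were called there (medians of 0.03 and 0.02). Of 15 class II presentation genes 0 were called against TAU (median 0.35). Against old LysM-Cre the only call was H2-DMb1, a chain of the peptide editor H2-DM. It rose by 0.53 ± 0.13 (limma adjusted p = 0.0478), where 1.48% of all tested probes were called higher. Against young LysM-Cre H2-Ob rose by 0.73 ± 0.18 and H2-DMb1 by 0.45 ± 0.13, where 3.44% of all tested probes were called higher. Neither was called without TAU/LysM replicate 2, where the class II median was -0.01 against 0.22 with it.

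Across the 16 arrays the members moved partly together. Of 91 pairs of member probes 74 had a positive Pearson correlation, with a median of 0.32, and after group means were removed 70 did, with a median of 0.29, all probes of an array sharing its RNA and its normalization. H2-D1 and Psmb9 had the closest pair (0.93), then the brighter H2-K1 probe and H2-D1 (0.92). The genes whose levels followed the members' mean standardised level most closely over these arrays were H2-Q8 (r = 0.87), Akr7a5 (0.86), Nudt9 (0.85), Gm8909 (0.82), H2-Q7 (0.81), Pkm (0.81), Ifi30 (0.80) and Psmb5 (0.79). Of these, H2-Q8 and H2-Q7 are class I heavy chains, Ifi30 encodes a lysosomal thiol reductase of antigen processing, and Pkm a pyruvate kinase. The mean standardised level itself was lowest on young LysM-Cre replicate 3 (-1.18) and highest on TAU/LysM replicate 2 (1.04).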

How the data were processed

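RNA of CD11b-selected brain cells was biotin-labelled and hybridised to Illumina arrays, per the labels' protocols. The deposited table of non-normalized values holds the intensity of 25697 probes on each of 16 arrays, before any normalization by the authors, per the file's own name; no scanner software is named in the labels. The deposited value table holds log2 intensities that equalled quantile-normalized log2 values of those intensities within 5e-09, and was used as an alternative. Detection p-values were not used here. Intensities were corrected by normexp with an offset of 16, taken to log2 and quantile-normalized in limma 3.58.1 (R 4.3.3). All levels are on this log2 scale, and levels of different probes were not compared. A probe was above background where its intensity passed the array's mode plus 1.64 spreads of the values below it. The 16376 probes above background on at least 2 arrays were tested.

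Group means were fitted to all arrays at once (10 residual and 3.68 prior degrees of freedom), with 13 comparisons. "Called" means an adjusted p under 0.05, after Benjamini-Hochberg adjustment over all tested probes in that comparison. SEs and 95% intervals come from this fit. The number of arrays, 2 or 3 a group, limits the precision. The fit was tested on simulated data. Median intensity was 202.9 to 283.6 an array, and 54.9% to 57.7% of probes were above background. Of all probes, 23978 have 1 symbol, 0 several and 1719 none.

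All members are named. From each related list every called gene was eligible, up to 4 by smallest p, or else the 2 of smallest p; the tested probe of the highest mean level stood for a gene. The members and lists were chosen with earlier results of these data known. Genes were named outside this rule where a statement turns on them, and were then chosen after their values were seen. Same-numbered young arrays of the 2 genotypes deviated together (r of 0.34, 0.51 and 0.24). Numbers 2 and 3 of young and old LysM-Cre did so too (0.4 and 0.34), but number 1 did not (-0.02). The reported fit pairs no arrays, in young samples or in others. The number entered as a block only in alternatives, for all arrays or for the young ones alone. Alternatives covered background correction, scaling, the probe filter, the variance model, array weights, the replicate block, the groups fitted and each array left out. Motifs were searched with Python 3.11.15 and figures drawn with matplotlib 3.10.9.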

Additional observations from a re-analysis of the deposited data

Results flagged for a closer look

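Nlrc5 lay on opposite sides of old mice of the same Cre status in the 2 tau-labelled groups, by -0.51 in TAU and 0.70 in TAU/LysM, neither called (limma, Benjamini-Hochberg adjusted p of 0.405 and 0.247). Both TAU arrays (7.55 and 8.09) lay below every old SIRT1F/F array (8.19 to 8.46), and both TAU/LysM arrays (8.81 and 9.77) lay above every old LysM-Cre array (8.51 to 8.72), as 20.9% and 16% of all tested probes did in these comparisons. The difference between these 2 effects was 1.21 ± 0.40 (log2, SE) and was not called (limma, Benjamini-Hochberg adjusted p = 0.386, from 0.106 to 1 over 28 alternatives). Without TAU/LysM replicate 2 it was 0.73.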

How the results depend on the processing

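Over 14 probes in 13 comparisons, 5096 values were recomputed, of which 5050 stayed on their side of the threshold, 27 crossed into a call and 19 out of one. None of the 30 results at an unadjusted p under 0.05 changed sign. Among the others, 194 recomputed values did, from differences of at most 0.50 as reported. The number of member probes called in TAU/LysM against TAU, 1 as reported, was 2 without background correction, 3 with array weights, and 0 with cyclic loess, with median scaling, with all probes tested, with only the groups compared fitted, without the arrays low in Xist or Eif2s3y, and with the oligodendrocyte level as a covariate, which was added after the data were seen. The 2 calls against young LysM-Cre became 1 with median scaling or all probes tested, and 0 with only the groups compared or without the arrays low in Xist or Eif2s3y. Against old LysM-Cre, 0 as reported became 2 without background correction, 1 with an offset of 50 and 2 with a trended, robust variance. The average genotype difference gave 1 call with array weights.

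Leaving out 1 array at a time gave 0 to 1 calls in TAU/LysM against TAU, 0 to 4 against young LysM-Cre and 0 to 1 against old LysM-Cre. It gave 0 to 1 for the average genotype difference and for TAU against young SIRT1F/F, and 0 in the other comparisons. Over all tested probes, the calls in TAU/LysM against TAU went from 241 to 37 without TAU/LysM replicate 2, 40 without TAU replicate 1 and 124 without TAU replicate 2, and those against young LysM-Cre from 1184 to 249 without TAU/LysM replicate 2. Calls for age in SIRT1F/F went from 206 to between 9 and 401, for age in LysM-Cre from 277 to between 54 and 381, for the average genotype difference from 199 to between 28 and 488, and for TAU against young and old SIRT1F/F from 1952 and 649 to no fewer than 342 and 147. The causes were not tested.

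With the replicate block, TAU/LysM against TAU gave 2 member calls (Nlrc5, and H2-D1 at an adjusted p of 0.0412 in limma) and 342 calls over all probes, and the block changed no other member count. Of 36 same-numbered pairs of arrays 11 correlated above 0.1 (-0.18 to 0.51). The 2 pairs of TAU with TAU/LysM arrays give the same 0.24 by construction. With 2 arrays a group the deviations mirror each other, so these are not separate values and were too few to judge pairing. Blocking the young arrays alone, added after the data were seen, also gave 0 member calls.

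Groups of 2 arrays, the missing ages of the tau-labelled samples, probes near the ceiling (B2m) and shared RNA among heavy chains limit these values. An effect of 1 TAU/LysM array cannot be told apart from one of the group.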

Other observations

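In TAU against young SIRT1F/F, 6 of 10 endothelial markers rose (median 1.17), as did 6 of 7 choroid plexus markers (median 2.20) and 4 of 7 astrocyte markers (median 0.76, with 1 that fell). Of all tested probes 6.3% were called higher and 5.62% lower in that comparison. None of the 10 endothelial markers was called in TAU against old SIRT1F/F (median 0.24, limma). Trim30a, an interferon-induced ubiquitin ligase, rose by 0.95 ± 0.17 in TAU against old SIRT1F/F and by 1.30 ± 0.17 in TAU/LysM against old LysM-Cre. With age Trim30a fell by 0.95 in SIRT1F/F and fell by 0.91 in LysM-Cre (adjusted p of 0.0108 and 0.0114). Both sets of comparisons share the old arrays, which read 10.13 to 10.44 for Trim30a, and against young samples it differed by 0 in TAU and by 0.39 in TAU/LysM, neither called. Cxcl10, a chemokine that draws T cells, rose by 0.68 in TAU against young SIRT1F/F.

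Averaged over the 3 genotype comparisons, all 23 interferon-stimulated genes were above 0 (median 0.36) and 3 rose: Oas2 by 1.05, Irf7 by 0.80 and Oasl1 by 0.59 (limma adjusted p of 0.0198, 0.0259 and 0.0492), where 1.22% of all tested probes were called. Stat2 rose by 0.53 there (adjusted p = 0.0479). Leaving out 1 array at a time, which was added after the data were seen, gave 0 to 9 calls in the list, with all 23 above 0 each time. None was called without TAU replicate 1 or without TAU/LysM replicate 2, and 9 were without young SIRT1F/F replicate 1. Among these fits, Stat2 was called only without young SIRT1F/F replicate 1 or young LysM-Cre replicate 2. Stat2 read 8.91, 8.18 and 8.62 in young SIRT1F/F and 9.17, 8.76 and 8.94 in young LysM-Cre, which overlapped.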
